A study of Mus musculus with 8 samples.

Results

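DNA transposons are mobile elements that move by excision and reinsertion through a transposase enzyme, without an RNA copy. Retroelements move through an RNA copy: long and short interspersed elements (LINEs and SINEs) and long terminal repeat (LTR) elements such as MERVL, which is transcribed in the 2-cell embryo. In the mouse, DNA transposons survive as short, mutated fossils scattered in introns and between genes, and they no longer jump. Reads assigned to them in messenger RNA libraries therefore commonly come from fossils carried inside other transcripts, so they serve as a background for retroelements with promoters of their own.

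The members were the repeat names that begin with Charlie, Tigger, Arthur, Zaphod, URR1, Looper, Kanga, Cheshire, Mam or ORSL. There were 69 among the 767 names of the knockdown table and 90 among the 834 names of the overexpression table. All 69 names of the knockdown table were also in the overexpression table, so there were 90 distinct members of 838 distinct names. The other 21 were found in the overexpression table only, at mean values of 4.79 to 10.4. In both tables a lower bound on reads had been applied, since the smallest sum over 4 libraries was 20 reads in the knockdown and 19 in the overexpression.

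The label was checked against the names. Charlie, Cheshire and URR1 belong to the hAT-Charlie family, Arthur, Zaphod, ORSL and MamTip to hAT-Tip100, Tigger to TcMar-Tigger, Kanga to TcMar-Tc2 and Looper to piggyBac. The prefix Mam also takes in names that are not DNA transposons, among them the gypsy LTR names MamGypLTR1b, MamGypLTR1c and MamGypLTR1d, the SINE MamSINE1 and the LINE Mam_R4. The MamRep names were not classified here, and all Mam names were kept as the rule has them. Without all Mam names the number of members that passed stayed at 1 in each arm, and the median log2 fold changes were 0.30 (knockdown) and -0.02 (overexpression).

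RNA came from J1 mouse embryonic stem (ES) cells grown with 15% serum and 10 ng/ml leukaemia inhibitory factor (LIF), in 4 groups of 2 libraries. KD Zscan4 cells carried a short hairpin RNA against Zscan4 in pSuper-puro and KD control cells a random control, under 2 µg/ml puromycin for 7 days. OE Zscan4 cells held pCMV-tag2 with the coding sequence of Zscan4c, and OE control cells the matching control, under 500 µg/ml G418 for 10 days. Selection began 24 h after 1000 ng of plasmid and single clones were picked, but the labels do not say whether the libraries of a group were separate clones, so the tests measure only the spread between these libraries, which may be technical.

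Zscan4c, a zinc finger gene of the 2-cell embryo, had normalised values of 575 and 566 in KD control, 11.2 and 15.5 in KD Zscan4, 60.1 and 75.2 in OE control, and 1074 and 981 in OE Zscan4, as labelled. The 5 ES cell markers Pou5f1, Nanog, Sox2, Zfp42 and Esrrb summed to 82350 and 83190 in KD control, 90400 and 87830 in KD Zscan4, 66870 and 65690 in OE control, and 99350 and 99340 in OE Zscan4. By limma 3 of 5 rose in the knockdown and 5 of 5 in the overexpression. Pou5f1 went the other way in the knockdown (log2 fold change -0.13, limma adjusted p = 0.078), with both KD Zscan4 libraries below both controls. Esrrb was there at 0.01 and did not pass. The 4 primitive endoderm markers Gata6, Sox17, Gata4 and Dab2 summed to 1728 and 1550 in KD control, 211 and 189 in KD Zscan4, 340 and 329 in OE control, and 213 and 202 in OE Zscan4. The 3 fibroblast markers Col1a1, Col1a2 and Thy1 summed to 193 and 193 in KD control and 281 and 281 in KD Zscan4. Their sums were 539 and 512 in OE control and 262 and 265 in OE Zscan4. By limma only Thy1 rose in the knockdown (log2 fold change 0.91), while Col1a1 and Col1a2 were at 0.07 each with overlapping groups. In the overexpression Col1a1 (-1.13) and Thy1 (-0.98) fell, and Col1a2 (-0.72) did not pass. Whether cells of such types had a part in the repeat values was not tested. In bulk RNA fewer cells of a type and less RNA per cell cannot be told apart. Libraries held 17.4 to 22.4 M gene reads and far fewer reads in repeats, whose signal was 1.58 to 2.36% of that of genes.

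Most members were rare. Values are normalised read counts, in which 1 read is worth 0.897 to 1.13 in the knockdown and 0.938 to 1.06 in the overexpression, and they are not divided by the length or the copy number of an element. Of the knockdown members, 44 had a mean under 20, 19 a mean of 20 to 100 and 6 a mean of 100 or more. Among the overexpression members these counts were 54, 28 and 8. The median member had a mean of 13.7 and 15.9 in these tables, against 47.8 and 50.9 over all repeat names. The tables were normalised separately, so levels are not compared between arms.

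A pair of rodent elements, URR1A and URR1B, held most of the reads. Their share of the summed member signal was 53.8 to 60.1% over the 8 libraries. URR1B was at 1450 and 1437 in KD control, 1562 and 1611 in KD Zscan4, 1829 and 2111 in OE control, and 1921 and 1906 in OE Zscan4. URR1A was at 1204 and 1157 in KD control, 1372 and 1409 in KD Zscan4, 1608 and 1945 in OE control, and 1664 and 1749 in OE Zscan4. For both names the KD Zscan4 libraries were higher than both KD controls, beside 48.2% of all names. The OE Zscan4 libraries of both names lay between the OE controls.

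Far below came Tigger7, a relative of the pogo transposon, with 181 and 187 in KD control and 158 and 222 in KD Zscan4. Its values were 258 and 372 in OE control and 282 and 345 in OE Zscan4, so its groups overlapped in both arms. The next names were hAT elements. Charlie1a was at 158 and 136 in KD control, 202 and 213 in KD Zscan4, 266 and 344 in OE control, and 250 and 274 in OE Zscan4. Charlie5 was at 104 and 121 in KD control, 101 and 139 in KD Zscan4, 171 and 177 in OE control, and 132 and 142 in OE Zscan4. Charlie1 was at 101 and 98.0 in KD control, 108 and 114 in KD Zscan4, 143 and 196 in OE control, and 149 and 139 in OE Zscan4. Under the deposited scaling, Charlie1a and Charlie1 did not overlap between the knockdown groups, with the KD Zscan4 libraries higher, beside 48.2% of all names. Charlie5 did not overlap between the overexpression groups, with the OE Zscan4 libraries lower, beside 17.4% of all names.

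**Figure D1:**
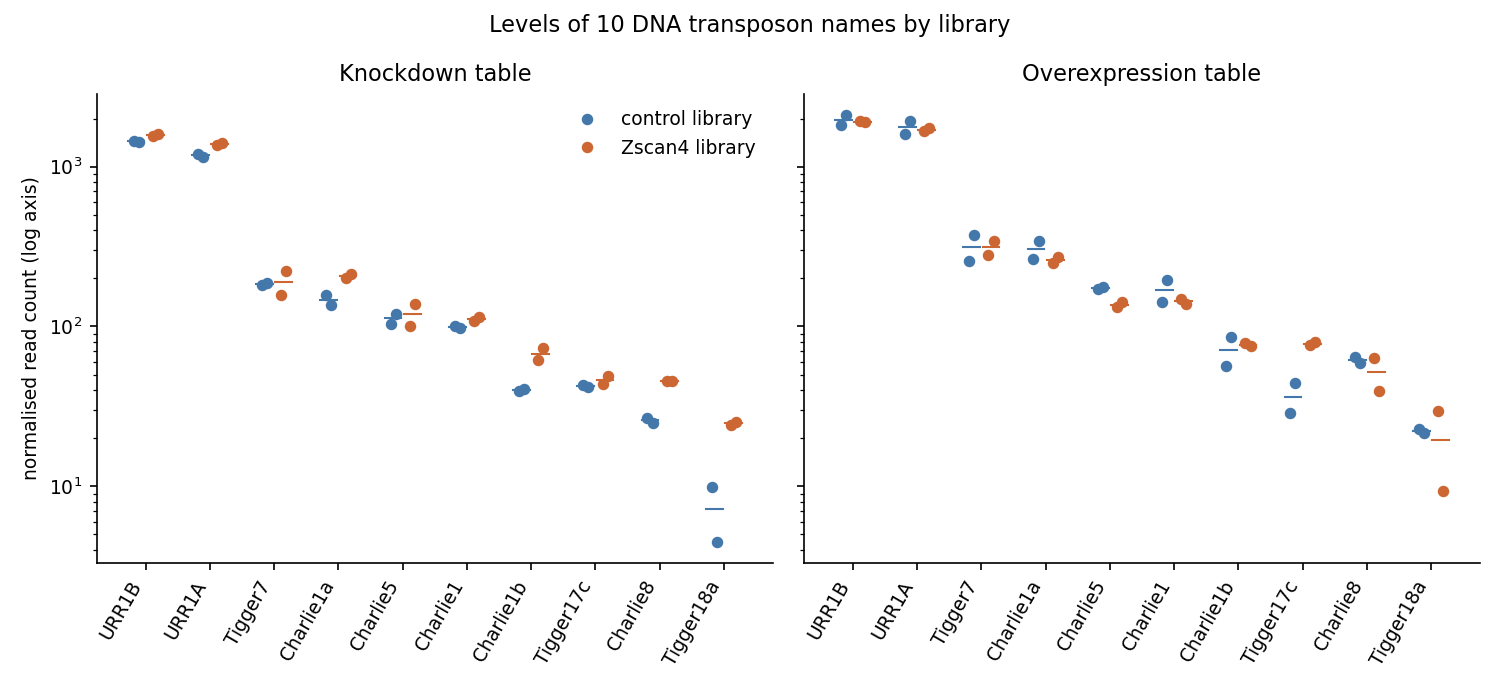
Normalised read counts of 10 DNA transposon names (log axis), with 1 point for each of 2 libraries per group and a line at the group mean, in the knockdown table (left) and the overexpression table (right), under the deposited scaling. URR1B and URR1A stand above 1000 in every library, and Tigger18a in the knockdown and Tigger17c in the overexpression show the largest gaps between groups among these names.

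The families differed in number and level. Charlie had 25 names in the knockdown table and 33 in the overexpression table, and Tigger had 21 and 26. The 25 Charlie names summed to 795 and 798 in KD control and 908 and 1015 in KD Zscan4, and the 33 in the overexpression table to 1217 and 1536 in OE control and 1268 and 1268 in OE Zscan4. The Tigger names summed to 680 and 695 in KD control, 799 and 921 in KD Zscan4, 949 and 1329 in OE control, and 1165 and 1237 in OE Zscan4. Under the deposited scaling both families were higher in the knockdown and lay within the range of the controls in the overexpression. The median knockdown log2 fold change was 0.35 in Charlie and 0.35 in Tigger, and 0.15 and 0.09 under TMM, while that of the URR1 pair turned from 0.19 to -0.07.

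The small families held few reads. Cheshire, a single hAT name, was at 64.6 and 40.6 in KD control, 48.6 and 75.4 in KD Zscan4, 71.8 and 111 in OE control, and 75.5 and 97.6 in OE Zscan4. Looper, the only piggyBac name, was at 8.97 and 7.89 in KD control, 6.08 and 6.77 in KD Zscan4, 18.2 and 23.6 in OE control, and 9.58 and 18.8 in OE Zscan4. Looper was lower in both KD Zscan4 libraries by about the worth of 1 to 3 reads, beside 10% of all names lower without overlap. Its OE groups overlapped. The 2 Zaphod names had knockdown log2 fold changes of -0.22 each, and the 3 Arthur names ranged from -0.42 to 0.80, with none past the test.

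The knockdown comparison asks whether these fossils moved when Zscan4 was targeted. Under the deposited scaling, the members' summed signal was 4420 and 4390 in KD control and 4972 and 5364 in KD Zscan4, or 113 and 122% of the control mean. Both KD Zscan4 libraries were higher than both controls. The median log2 fold change of the 69 members was 0.30, with quartiles of 0.03 and 0.79, and 55 members were higher and 14 lower. Without KD Zscan4 replicate 1 the median was 0.50. All 767 names had a median of 0.26, and 594 were higher and 173 lower, so the members moved with the table as a whole.

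This common shift depended on the scaling. The deposited values of a library share 1 factor, close to that of its genes. When the 4 libraries were instead scaled by trimmed mean of M values (TMM) over all repeat names, the members' sum was 4763 and 4884 in KD control and 4845 and 4633 in KD Zscan4. The KD Zscan4 libraries then stood at 100 and 96.1% of the control mean, and the groups overlapped. The members' median log2 fold change became 0.04, with 39 higher and 30 lower, beside 0.01 over all names, with 396 higher and 371 lower. TMM takes most names as unchanged, and the members are among those names, so it cannot tell a rise of all old repeats from a difference in the libraries' repeat content.

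Single members rarely passed. By limma with Benjamini-Hochberg adjustment over the 767 names, 1 of 69 members rose and 0 fell under the deposited scaling, beside 8.87% of all names called, with rises in 6% and falls in 2.87%. Under TMM 0 of 69 passed, beside 4.43%, and under median-of-ratios factors over repeat names 0 of 69, beside 5.08%. At an unadjusted limma p under 0.05 there were 13 members under the deposited scaling, beside 29.3% of all names, 8 under TMM, beside 15.9%, and 8 under median-of-ratios factors, beside 15.6%. Groups did not overlap in 35 members that were higher and 4 that were lower, beside 48.2% and 10% of all names. Under TMM these counts were 20 and 12, beside 24.5% and 23.6%.

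Low counts limited what could be seen. The 95% interval of a member's log2 fold change reached a median of 0.95 to each side in the knockdown and 0.89 in the overexpression, against 0.53 and 0.58 over all names. Among members with a mean of at least 20 it reached 0.48 and 0.56. A change of 1.5-fold in most members was not detectable at this depth.

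Tigger18a was the member called in the knockdown. It was at 9.87 and 4.51 in KD control and 24.3 and 25.1 in KD Zscan4, so both KD Zscan4 libraries were well above both controls. Its log2 fold change was 1.73 (95% interval 0.79 to 2.68, limma adjusted p = 0.0207). Under TMM the change was 1.50 and the call was lost (limma adjusted p = 0.0969). Leaving out KD control replicate 2 (1.24), or either KD Zscan4 library (1.76 without the first and 1.71 without the second), also ended it. Without KD control replicate 1 the change was 2.22. In the overexpression Tigger18a was at 23.0 and 21.5 in OE control and 29.8 and 9.38 in OE Zscan4, with the 2 OE Zscan4 libraries on either side of the controls.

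Among members with a mean of at least 20, the largest knockdown changes were in Charlie names. Charlie7 was at 10.8 and 15.8 in KD control and 21.3 and 32.9 in KD Zscan4 (log2 fold change 0.97, 95% interval 0.17 to 1.76). Charlie8 was at 26.9 and 24.8 against 45.6 and 45.4 (0.79, 0.22 to 1.37), and Charlie1b at 39.5 and 40.6 against 61.8 and 73.5 (0.74, 0.25 to 1.23). For Charlie1a the values given above make 0.49 (0.16 to 0.82), and Tigger5 was at 69.1 and 72.1 against 98.3 and 92.8 (0.43, 0.02 to 0.84). In all 5 names, which were picked as the largest rises, both KD Zscan4 libraries were above both controls. The same held in 54.4% of all names with a mean of at least 20. None of the 5 passed: limma adjusted p was 0.103 for Charlie7, 0.0653 for Charlie8, 0.0521 for Charlie1b, 0.0524 for Charlie1a and 0.152 for Tigger5. Charlie1a and Charlie1b passed when only names with a mean of at least 20 were tested, beside 17.5% of those names. Under TMM the log2 fold changes were smaller, at 0.72 in Charlie7, 0.55 in Charlie8, 0.49 in Charlie1b, 0.24 in Charlie1a and 0.18 in Tigger5. The lowest limma adjusted p of the 5 was then 0.247, in Charlie1b.

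At the other end, Charlie4a was at 82.6 and 112 in KD control and 77.0 and 89.0 in KD Zscan4, a log2 fold change of -0.21. Charlie12 had -0.17, Charlie29a -0.06, Tigger7 0.03 and MamSINE1 0.03, all with overlapping groups. Between these ends lay the abundant pair. URR1A had a log2 fold change of 0.24 (95% interval 0.01 to 0.46, limma adjusted p = 0.156) and URR1B 0.14 (-0.09 to 0.36), which under TMM were -0.02 and -0.12, so their direction changed with the scaling.

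**Figure D2:**
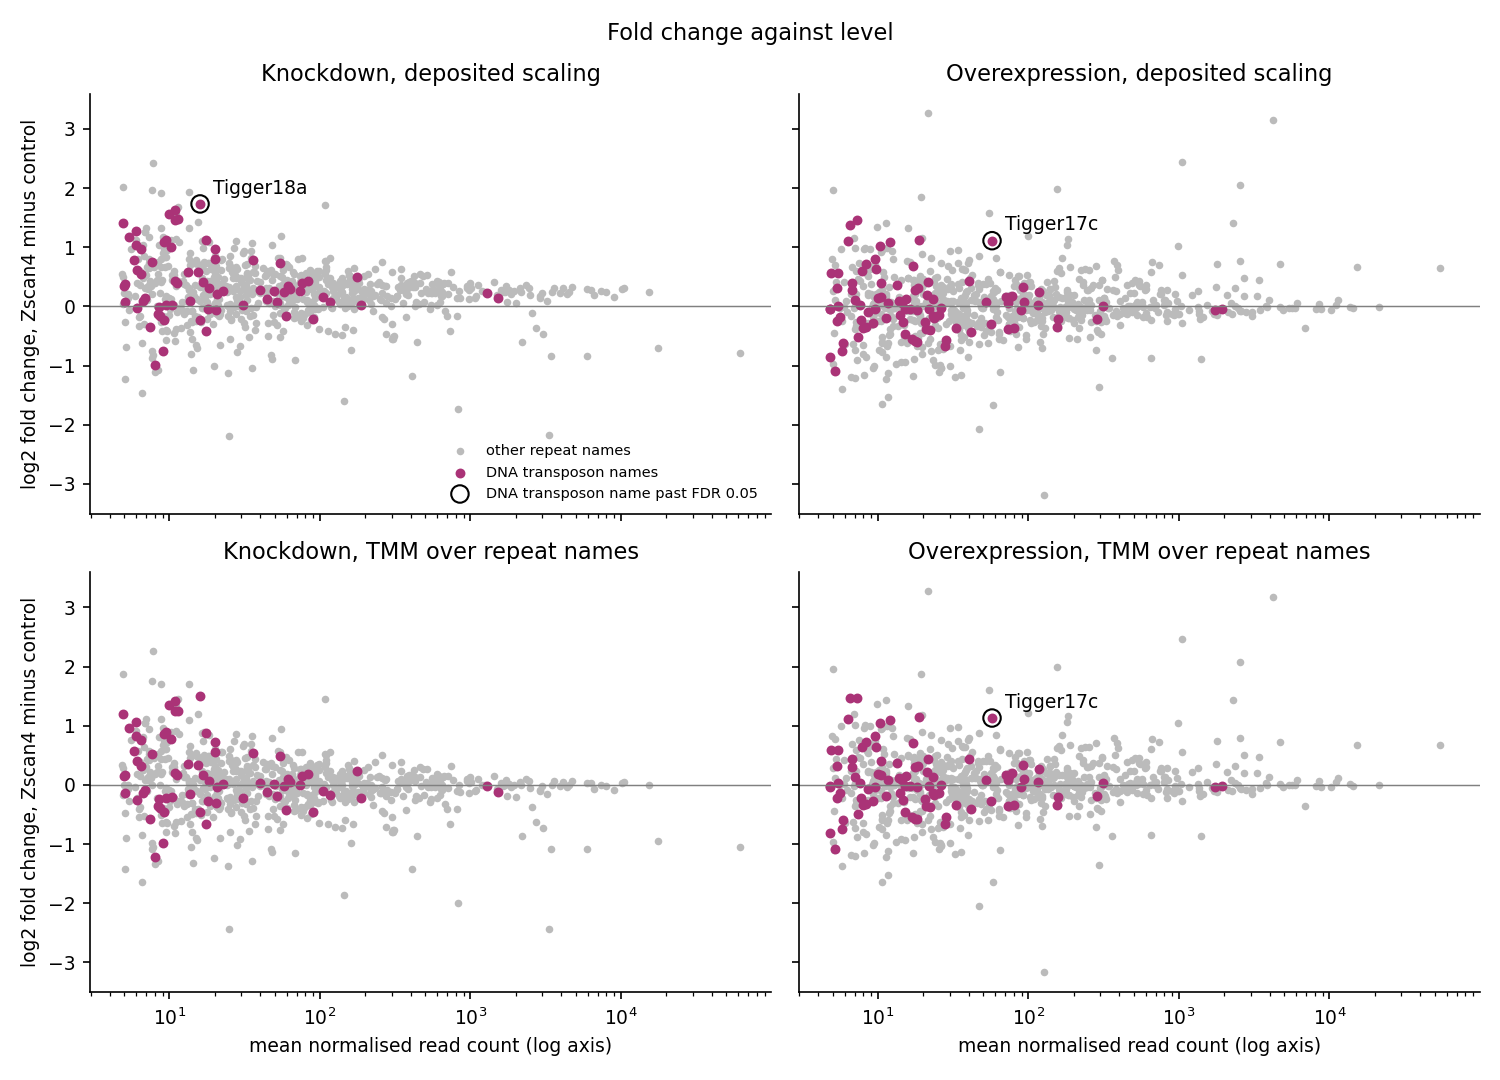
Log2 fold change of each repeat name, Zscan4 minus control, against its mean normalised read count (log axis), with DNA transposon names coloured and those past a false discovery rate of 0.05 by limma circled. Rare members scatter widely and the 2 URR1 names at the right lie near the line of other names; the knockdown cloud is centred at 0.26 under the deposited scaling and at 0.01 under TMM.

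The overexpression comparison showed no common shift of the members. Their summed signal was 6046 and 7536 in OE control and 6529 and 6673 in OE Zscan4, so both OE Zscan4 libraries lay between the controls. As a share of the control mean they were at 96.1 and 98.3%, and the controls themselves at 89.0 and 111%. The median log2 fold change of the 90 members was -0.03, with quartiles of -0.26 and 0.29, beside -0.01 over all 834 names. There were 44 higher and 46 lower members under the deposited scaling and under TMM.

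The controls of this arm stood apart from each other. OE control 2 was higher than OE control 1 in 68 of 90 members and in 691 of 834 names, by a median log2 difference of 0.36 in members and 0.34 over all names. Under TMM the difference in members was 0.05, and the sums became 6784 and 6693 in OE control and 6660 and 6694 in OE Zscan4. The members' median therefore turned on the choice of control: it was -0.24 without OE control replicate 1 and 0.22 without OE control replicate 2.

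By limma, 1 of 90 members rose and 0 fell in the overexpression, beside 3.84% of all names called, with rises in 2.52% and falls in 1.32%. Under TMM it was also 1, beside 12.4%, and under median-of-ratios factors 1, beside 12%. At an unadjusted limma p under 0.05 there were 3 members, beside 12.8% of all names, and 4 under TMM, beside 22.9%. Groups did not overlap in 11 members that were higher and 11 that were lower, beside 20% and 17.4% of all names, and under TMM in 15 and 15, beside 27.7% and 22.9%. Without OE control replicate 1, 7 members passed, of which 6 fell, beside 22.7% of all names. Without OE control replicate 2, 6 passed, all higher, beside 22.5%. When OE Zscan4 replicate 1 or OE Zscan4 replicate 2 was left out, 0 passed, beside 0.959% of all names each time. The counts of calls thus moved in the whole table and not in the members alone.

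Tigger17c was the member called. It was at 28.7 and 44.1 in OE control and 76.6 and 79.7 in OE Zscan4, with both OE Zscan4 libraries above both controls. Its log2 fold change was 1.11 (95% interval 0.54 to 1.68, limma adjusted p = 0.0051), and 1.13 under TMM (limma adjusted p = 0.00086). Without OE Zscan4 replicate 1 the change was 1.14 and without OE Zscan4 replicate 2 it was 1.08, and the call was lost both times. The change was 0.81 without OE control replicate 1 and 1.41 without OE control replicate 2. In the knockdown Tigger17c was at 43.1 and 41.7 in KD control and 43.6 and 49.3 in KD Zscan4, a log2 fold change of 0.13 (limma adjusted p = 0.779).

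The other Tigger17 names did not pass in the overexpression. Tigger17a was at 69.0 and 74.9 in OE control and 68.1 and 82.6 in OE Zscan4, Tigger17 at 18.2 and 26.7 against 21.3 and 21.6, and Tigger17b at 1.92 and 12.3 against 2.13 and 2.81. In each of the 3 the groups overlapped. These subfamilies share sequence, and how reads were divided between them is not given in the sources used here, so a value of 1 of them is less certain than that of a lone name.

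The remaining overexpression values were small. Next to Tigger17c, the highest log2 fold changes among members with a mean of at least 20 were 0.42 in Charlie2b, 0.42 in MamTip1, 0.32 in Tigger1 and 0.24 in Tigger5. The lowest were -0.67 in Tigger2b, -0.57 in Kanga2_a, -0.42 in MamSINE1, -0.40 in Tigger14a and -0.38 in Tigger18a. Tigger2b, picked as the largest fall, was at 28.7 and 40.0 in OE control and 24.5 and 17.8 in OE Zscan4. Its groups did not overlap, beside 18.1% of all names with a mean of at least 20 that were lower without overlap. Tigger2b did not pass (limma adjusted p = 0.409). The 95% interval of URR1A was -0.46 to 0.36 around -0.05, and that of URR1B -0.45 to 0.37 around -0.04.

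The effects of the 2 arms were then set against each other, in the 763 names of both tables, as the knockdown difference minus the overexpression difference. The arms share no control libraries. By limma, 2 of 69 members differed, beside 7.73% of all names. Tigger18a differed by 2.11 (95% interval 0.86 to 3.36, limma adjusted p = 0.0155). Tigger2b differed by 2.14 (0.86 to 3.42, limma adjusted p = 0.0166), with 8.97 and 2.25 in KD control and 22.3 and 9.67 in KD Zscan4 beside its overexpression values above. Under TMM both calls were lost (limma adjusted p = 0.0921 and 0.109) and Tigger17c alone passed, with a difference of -1.25 (limma adjusted p = 0.0079), beside 11.4% of all names. Of the 69 members, 27 were higher in the knockdown and lower in the overexpression, 7 the reverse, 28 higher in both and 7 lower in both, under the deposited scaling.

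Among retroelements, MERVL moved far beyond any abundant member. MERVL-int, the internal part of MERVL, was at 5599 and 5211 in KD control, 1032 and 1378 in KD Zscan4, 804 and 891 in OE control, and 7862 and 7256 in OE Zscan4. It fell by 2.18 on the log2 scale in the knockdown and rose by 3.16 in the overexpression (limma adjusted p = 1.8e-13 and 6.8e-46), and its LTR MT2_Mm changed by -1.74 and 2.45. Of the 8 MERVL and MT2 names, 1 rose and 2 fell in the knockdown and 2 rose in the overexpression, by limma. A ratio within a library does not depend on any scaling. Reads in MERVL-int over reads in members were 1.27 and 1.19 in KD control, 0.208 and 0.257 in KD Zscan4, 0.133 and 0.118 in OE control, and 1.20 and 1.09 in OE Zscan4. The groups were far apart in opposite directions in the 2 arms, though with 2 against 2 libraries an exact two-sided permutation test cannot give a p below 0.333.

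The ratio to SINEs, which are also carried in many transcripts, moved far less. The SINE names, B1, B2 and their kin, summed to 27.2 and 26.9 times the members in KD control, 27.4 and 27.6 in KD Zscan4, 25.7 and 26.4 in OE control, and 26.8 and 26.4 in OE Zscan4. For DNA transposons with MER and other names, outside the members, the ratio was 0.859 and 0.839 in KD control, 0.859 and 0.839 in KD Zscan4, 0.824 and 0.825 in OE control, and 0.845 and 0.838 in OE Zscan4. The groups of these other DNA transposons overlapped in the knockdown, and in the overexpression both OE Zscan4 ratios were slightly higher than both controls. The SINE ratios stayed within 25.7 to 27.6 over the 8 libraries, where both KD Zscan4 ratios were slightly higher than both KD controls and the overexpression groups overlapped. For old LINE names the ratio was 5.97 and 5.63 in KD control, 5.56 and 6.11 in KD Zscan4, 5.49 and 5.91 in OE control, and 6.14 and 6.12 in OE Zscan4, with overlap in the knockdown and none in the overexpression.

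Young LINE-1 names here are all that begin with L1Md, of which some, not all, still hold active copies. They were set beside the fossils in the same way. Their sum over the members' sum was 2.47 and 2.20 in KD control, 1.50 and 1.95 in KD Zscan4, 0.854 and 0.884 in OE control, and 1.97 and 1.94 in OE Zscan4. By limma 2 of 6 fell and 0 rose in the knockdown, and 5 of 6 rose in the overexpression, with median log2 fold changes of -0.26 and 1.22, which under TMM were -0.52 and 1.24. ERVK here means the LTR names that begin with IAP, ETn, RLTRETN, MERVK, ERVB or RMER. The abundant MMETn-int is not in this list, so the ratio is not that of the whole class. For the list the ratio was 9.72 and 9.33 in KD control and 6.01 and 6.64 in KD Zscan4. In the overexpression arm it was 5.36 and 5.04 in OE control and 6.41 and 6.42 in OE Zscan4. For the older MaLR LTRs it was 6.0 and 5.94, 5.93 and 6.16, 5.65 and 5.59, and 5.89 and 5.90 in the same order. ERVK and young LINE-1 ratios were separated between groups in both arms, and MaLR ratios overlapped in the knockdown and were separated in the overexpression, with OE Zscan4 higher.

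**Figure D3:**
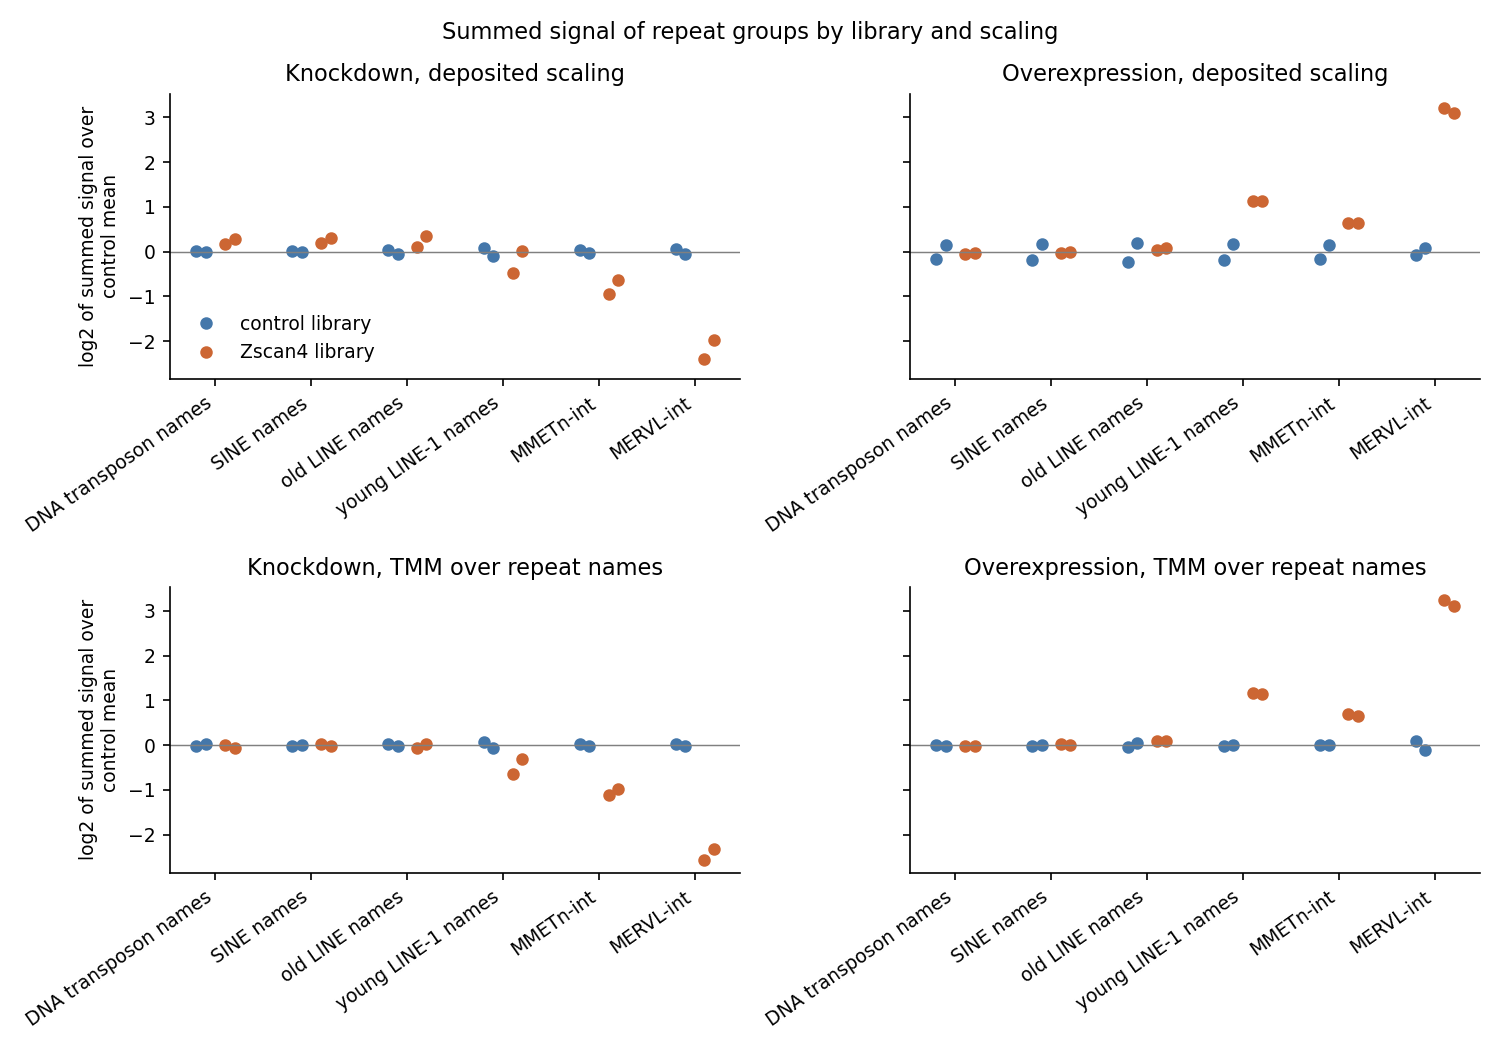
Log2 of the summed normalised signal of a group of repeat names, or of 1 name, over the mean of its 2 control libraries, with 1 point per library, in both arms (columns) and under the deposited scaling and TMM over repeat names (rows). DNA transposon names, SINE names and old LINE names are higher in KD Zscan4 under the deposited scaling and near 0 under TMM, while MERVL-int stays far from 0 under both.

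Medians over names gave the same picture. In the knockdown the other DNA transposon names had a median log2 fold change of 0.29 (43 names, 2 rose and 0 fell), SINE names 0.25 (28 names, 2 rose), old LINE names 0.28 (108 names, 5 rose) and MaLR names 0.29 (112 names, 14 rose). The members' 0.30 lay beside these values. Under TMM the same medians were 0.04 for other DNA transposon names, -0.01 for SINE names and 0.03 for old LINE names. In the overexpression they were -0.03, -0.02 and 0.02 under the deposited scaling. Names of 1 class share transcripts and reads, so these medians are descriptions.

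**Figure D4:**
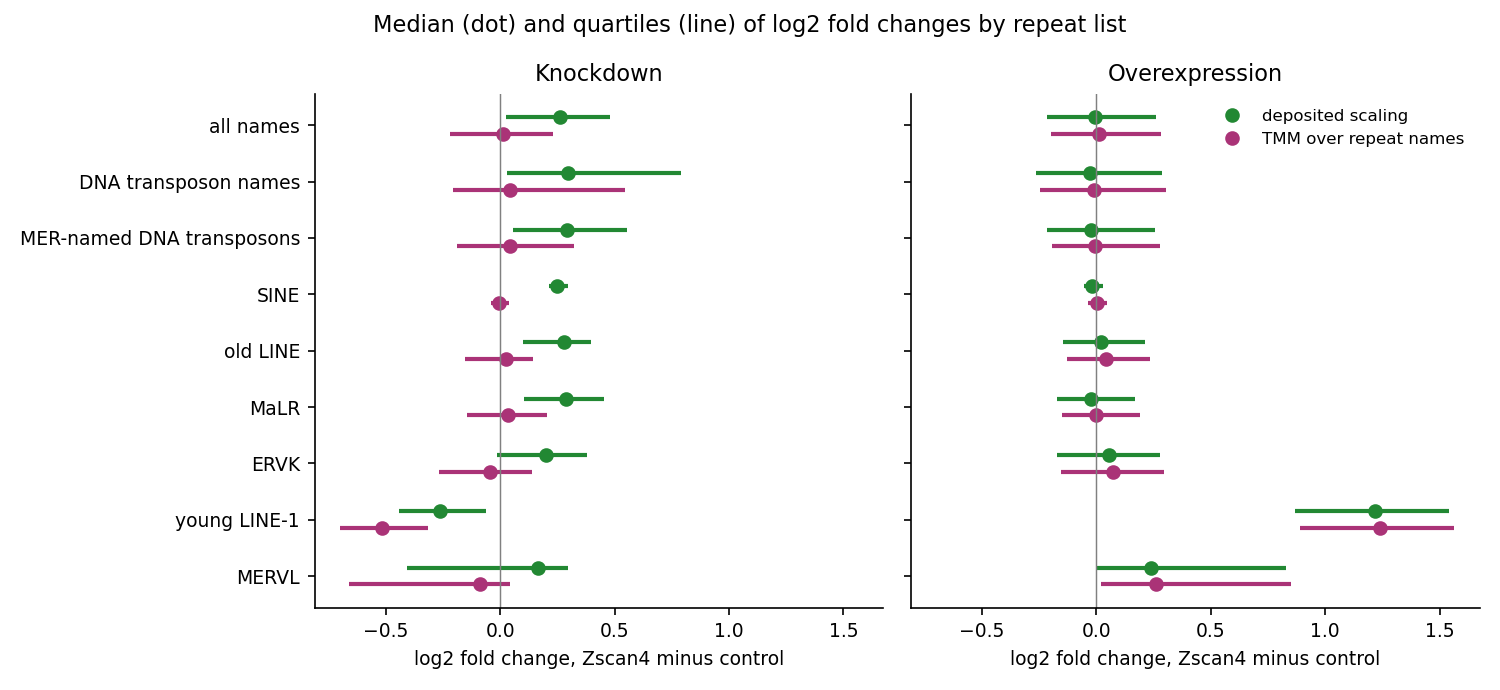
Median (dot) and quartiles (line) of the log2 fold change, Zscan4 minus control, over the names of each repeat list, in the knockdown and the overexpression, under the deposited scaling and under TMM over repeat names. In the knockdown the DNA transposon median moves from 0.30 to 0.04 with the scaling, as do those of the SINE and old LINE lists, and the young LINE-1 list is apart in both arms.

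As a share of all repeat signal the members appeared to gain in the knockdown and to lose in the overexpression. The share was 1.24 and 1.28% in KD control, 1.58 and 1.50% in KD Zscan4, 1.75 and 1.73% in OE control, and 1.49 and 1.51% in OE Zscan4, with no overlap in either arm. MMETn-int, ETnERV-int and MERVL-int alone took 30.4 and 29.9% of repeat signal in KD control, 17.1 and 18.8% in KD Zscan4, 14.1 and 13.9% in OE control, and 21.1 and 20.8% in OE Zscan4. Without these 3 names in the denominator the members' share was 1.78 and 1.82% in KD control, 1.91 and 1.84% in KD Zscan4, 2.03 and 2.01% in OE control, and 1.89 and 1.91% in OE Zscan4. The difference between groups then shrank from 0.284 to 0.0772 percentage points in the knockdown and from -0.234 to -0.119 in the overexpression. The signs stayed the same, and the groups still did not overlap in either arm.

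DNA transposases have also given rise to host genes that keep a transposase-like or DNA-binding fold. A list of 20 such genes was examined, of which 17 were measured. Tigd4, Rag1 and Rag2 were not in the tables. In the knockdown 2 of 17 rose and 4 fell by limma, beside 35.7% of all 17938 genes called, with rises in 17.2% and falls in 18.5%. In the overexpression 6 rose and 1 fell, beside 44.3% of all 18292 genes, with rises in 22.3% and falls in 22.1%. Their median log2 fold changes were -0.05 and 0.25, beside values within 0.01 of 0 over all genes. As shares of 17, the counts called in both arms were near the background. The contrast of both effects passed in 9 of 17 genes, beside 44.7% of the 17409 genes in both tables.

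Relatives of the pogo and Tigger transposases came first. Tigd5 (chromosome 15, 75909735 to 75914535, mm10) was at 103 and 94.3 in KD control, 60.9 and 56.3 in KD Zscan4, 9.54 and 13.4 in OE control, and 42.5 and 53.6 in OE Zscan4. It fell by 0.74 in the knockdown (SE 0.18, limma adjusted p = 0.0070) and rose by 1.98 in the overexpression (SE 0.33, limma adjusted p = 0.00012). Cenpb (chromosome 2, 131175182 to 131180067), which encodes the centromere protein that binds minor satellite DNA, was at 2828 and 2850 in KD control, 2423 and 2398 in KD Zscan4, 790 and 791 in OE control, and 1598 and 1673 in OE Zscan4. It fell by 0.24 (SE 0.05, limma adjusted p = 0.0038) and rose by 1.05 (SE 0.07, limma adjusted p = 6.9e-09). Neither gene's groups overlapped in either arm. The call of Tigd5 in the knockdown was lost by DESeq2 (-0.75) and without KD control replicate 1 (-0.68).

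Jrk, another pogo relative, was at 510 and 485 in KD control, 493 and 468 in KD Zscan4, 294 and 319 in OE control, and 470 and 437 in OE Zscan4, and rose in the overexpression by 0.56 (SE 0.10). Pogz, which encodes a heterochromatin protein partner, rose there by 0.25 (SE 0.07), a call lost without either OE Zscan4 library. Pogk, which joins a pogo transposase domain to a KRAB domain, was at 116 and 112 in KD control, 144 and 148 in KD Zscan4, 244 and 240 in OE control, and 155 and 153 in OE Zscan4. It fell in the overexpression by 0.65 (SE 0.13, limma adjusted p = 0.00045) and did not pass in the knockdown (0.35, limma adjusted p = 0.0661). Tigd3 did not pass in either arm (-0.41 and -0.37), nor did Jrkl in the overexpression (0.41).

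Of the hAT relatives, Zbed3 was at 579 and 595 in KD control and 410 and 459 in KD Zscan4 and fell by 0.43 (SE 0.08, limma adjusted p = 0.0018). Zbed5 rose in the overexpression by 0.46 (SE 0.08, limma adjusted p = 0.00011), from 830 and 861 to 1128 and 1199. Zbed6, a repressor gene that lies within Zc3h11a on the same strand so that reads of the 2 may be shared, was at 43.9 and 42.7 in KD control and 64.9 and 74.7 in KD Zscan4 and rose by 0.67 (SE 0.21, limma adjusted p = 0.0251). Zbed6 and Pogk lie on chromosome 1, where 703 protein-coding genes at a mean of 20 or more had a median knockdown log2 fold change of 0.56, beside -0.02 on the other autosomes. The part of that shift in both values was not tested. Gtf2ird2 did not pass in either arm (0.38 and 0.51).

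Pgbd5, a piggyBac relative, was at 93.1 and 87.6 in KD control and 122 and 136 in KD Zscan4 and rose by 0.51 (SE 0.15, limma adjusted p = 0.0232). Of the Harbinger relatives, Harbi1 fell in the knockdown by 0.28 (SE 0.10, limma adjusted p = 0.0448) and Naif1 rose in the overexpression by 0.34 (SE 0.12, limma adjusted p = 0.0327). The calls of Pgbd5, Zbed6 and Harbi1 were lost without KD control replicate 1, without KD control replicate 2, and by DESeq2. Their log2 fold changes moved little there, to 0.46 to 0.55 in Pgbd5, 0.66 to 0.69 in Zbed6 and -0.32 to -0.25 in Harbi1. Those of Pgbd5 and Zbed6 were also lost without KD Zscan4 replicate 2 and that of Harbi1 without KD Zscan4 replicate 1, and the call of Naif1 was lost without OE Zscan4 replicate 1 and by DESeq2. By DESeq2 0 of the 17 genes rose and 2 fell in the knockdown, and by edgeR 6 passed. The shares of all genes called by DESeq2 and edgeR are not given here, so these counts are not read as results about the 17 genes. Cenpb overlaps Spef1 and Zbed3 overlaps Snora47 on the same strand, and Pogk, Jrk, Zbed5, Harbi1 and Naif1 each overlap a gene on the other strand, so reads may be shared there.

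**Figure D5:**
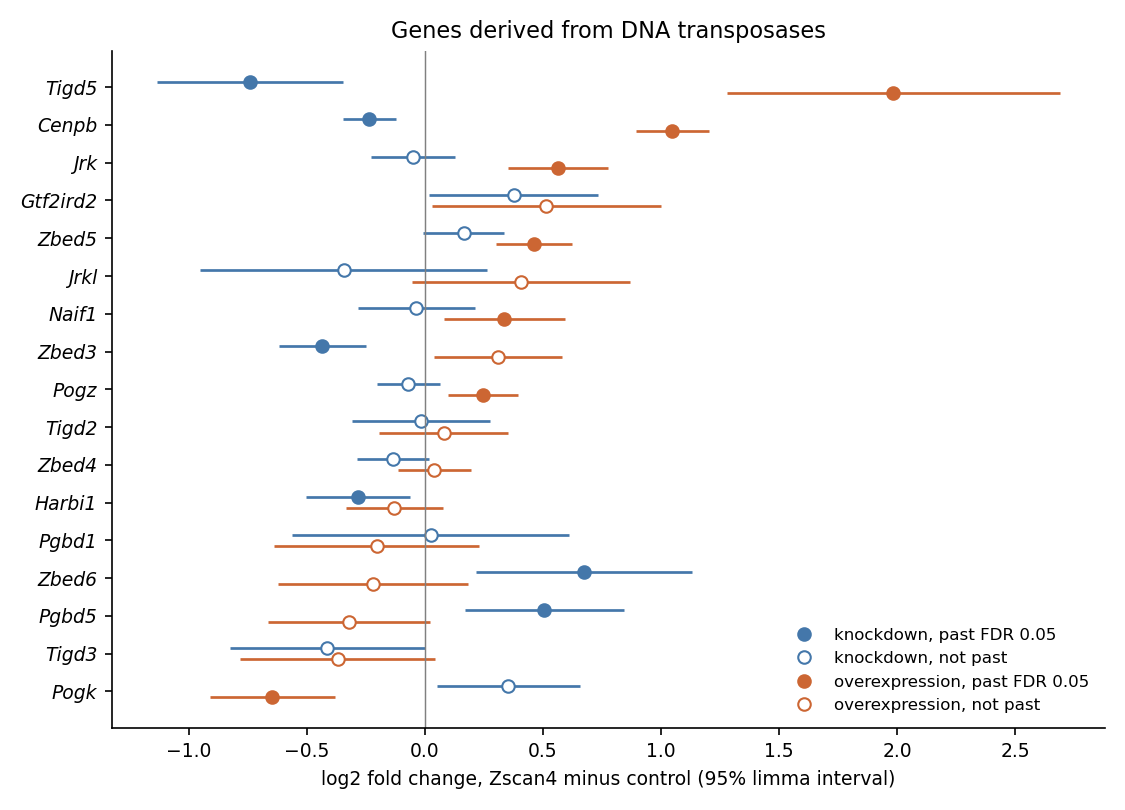
Log2 fold change, Zscan4 minus control, of 17 genes derived from DNA transposases, with 95% limma intervals, in the knockdown and the overexpression, where filled points passed a false discovery rate of 0.05. Tigd5 and Cenpb lie below 0 in the knockdown and furthest above 0 in the overexpression, and Pogk is the only gene past the test on the lower side in the overexpression.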

How the data were processed

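Messenger RNA of 8 libraries in 4 groups of 2 was analysed. Per the submitters' processing notes, cutadapt, HISAT2, featureCounts and DESeq2 were used with mm10, in versions not given in the sources used here, and libraries were amplified for 11 PCR cycles. The authors deposited normalised signal in 4 tables, 1 of genes and 1 of repeat names for each arm, in which each library's reads are divided by 1 factor. Columns were matched to samples by the numbers in the titles, although the descriptions number the second libraries differently.

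Tests used limma 3.58.1 in R 4.3.3 with a mean-variance trend on log2(value + 1), 2 against 2 libraries, two-sided, with Benjamini-Hochberg adjustment over the whole table at 0.05. Fold changes on this scale are understated for low names. The fit named for raw counts was edgeR, and limma took its place since the files hold normalised values. Reads recovered from the steps between values gave TMM and median-of-ratios factors over repeat names. For genes edgeR 4.0.16 and DESeq2 1.42.0 were alternatives on recovered reads, of which 100% came out whole. Gene symbols came from GENCODE M21 (17913 of 17938 and 18259 of 18292 genes matched). Whether counting used strand is not stated.

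Members named were those that pass, the 5 largest rises and falls with a mean of at least 20, the 5 highest, and URR1A and URR1B; of transposase-derived genes, those that pass and 3 others with the largest change. Other named members were picked after their values were seen. The members, lists and tests were chosen with earlier results of these data known. Over members, the chi-square between the libraries of a group was 1.37 to 1.84 times its degrees of freedom, more than sampling noise, and each counted as 1 library. No repeat sequences were used.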

Additional observations from a re-analysis of the deposited data

Results flagged for a closer look

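The knockdown effect minus the overexpression effect was tested by limma as a contrast over both arms. It differed from 0 in 2 of 69 DNA transposon names, beside 7.73% of all 763 names in both tables. The difference was 2.11 in Tigger18a and 2.14 in Tigger2b, on the log2 scale. Both rest on fewer than 41 normalised reads in every library, and both calls were lost under TMM over repeat names.

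The same contrast passed in 9 of the 17 transposase-derived genes, beside 44.7% of 17409 genes in both tables. The difference was -2.73 in Tigd5, -1.28 in Cenpb, -0.74 in Zbed3, -0.61 in Jrk, -0.32 in Pogz and -0.30 in Zbed5, where the knockdown effect was the lower one. It was 1.00 in Pogk, 0.89 in Zbed6 and 0.83 in Pgbd5, where the knockdown effect was the higher one. All 9 passed with a pseudocount of 0.5 and with TMM over genes, both chosen after seeing the data.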

How the results depend on the processing

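With 2 libraries a group, 44 of 69 knockdown members had a mean under 20. Under TMM and median-of-ratios factors over repeat names, respectively, 0 and 0 knockdown members passed, beside 4.43% and 5.08% of all names. Their median was 0.044 and 0.039. In the contrast between arms 1 member differed under TMM, beside 11.4% of all names, and 1 under median-of-ratios factors. With a mean of at least 20, 2 passed in the knockdown, beside 17.5% of such names, and 0 differed between arms. The filter removes names such as Tigger18a. Shares of all names are not given for the contrast under median-of-ratios factors or with the filter, so those 2 counts are not read as results about the members. DESeq2 called 2 transposase-derived genes in the knockdown, with no share over all genes to set beside it. Without MMETn-int, ETnERV-int and MERVL-int the share differences were 0.0772 and -0.119 percentage points, an alternative chosen after seeing the data. Leaving out 1 library gave 0 to 3 knockdown members with medians of 0.21 to 0.50, 0 to 7 overexpression members with medians of -0.24 to 0.22, 0 to 4 differing members, and 2 to 6 and 5 to 9 genes. A library left alone in its group is then assumed to vary like the others. For fits with 1 library left out, shares of all names called are given above for the overexpression only. There the shares moved together with the members' counts. No such shares are given for the knockdown names, the contrast between arms or the genes. The counts from fits with 1 library left out are therefore not read as results about the members or the genes.

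Of the 69 knockdown members, 55 were higher under the deposited scaling and 39 under TMM, so many members changed direction. Cheshire, for example, went from 0.24 to -0.01. The names that follow are only those among the members named by the rule above. In these, the direction of knockdown log2 fold changes turned under TMM in Tigger7 (-0.23), MamSINE1 (-0.22), Charlie5 (-0.17), URR1B (-0.12) and URR1A (-0.019). Under median-of-ratios factors it turned in the same names (-0.23, -0.22, -0.17, -0.12 and -0.024, in the same order). It turned when 1 library was left out in Charlie4a (-0.43 to 0.0037), Charlie12 (-0.41 to 0.074), Charlie29a (-0.19 to 0.061), Tigger7 (-0.22 to 0.27), MamSINE1 (-0.093 to 0.15) and Charlie5 (-0.14 to 0.31). In the overexpression it turned in Charlie2b (-0.094 to 0.94), Tigger5 (-0.12 to 0.60), MamSINE1 (-0.96 to 0.11), Tigger18a (-1.16 to 0.40), URR1B (-0.14 to 0.066), URR1A (-0.19 to 0.085), Tigger7 (-0.25 to 0.27) and Charlie1 (-0.44 to 0.011). The cause was not tested. Of the other values of named members and genes, 342 kept direction and side of the threshold, 25 lost a call and 13 gained one.

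Replicate numbers did not pair the libraries: deviations of same-numbered libraries correlated at 0.018 in the knockdown names and -0.050 in the overexpression names. With the replicate block 1 member passed in each arm, 2 differed between arms, and 6 and 8 genes passed. The shares over all names and all genes with this block are not given here. edgeR and DESeq2 on repeat names were planned and not run, because in 2 libraries the smallest deposited repeat value was worth 2 reads, so the worth of 1 read was not itself among the values; the reads recovered there served only for scaling.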
